A study of Homo sapiens with 6 samples.

Results

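The 10 genes described here mark epithelial or mesenchymal cell state: the keratins KRT7, KRT8, KRT18 and KRT19, the epithelial surface protein EPCAM, the cadherins CDH1 and CDH2, and VIM, FN1 and S100A4. They were fixed by name and matched through the gene symbols of the authors' merged count table, which held all 10 of them, out of 58037 gene IDs in each library's table. The cells were OVCAR8, an established human ovarian carcinoma line, grown in 6-well plates at 300000 cells per well in medium with serum and then kept without serum for 16 hours. In 1 group of 3 libraries (replicates 1, 2 and 3) the cells then received 50 ng/mL of recombinant human relaxin-2 (RLN2) for 8 hours, and in the other group of 3 (replicates 2, 3 and 4) they were left untreated. The series asks what relaxin-2, a peptide hormone of the insulin superfamily, does to the transcriptome of these cells. The labels do not say whether the triplicates were cultured separately, and the p-values therefore reflect only how far these libraries differ from each other, which may be technical.

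Keratins are the intermediate filament proteins of epithelia. Type II chains such as KRT7 and KRT8 pair with type I chains such as KRT18 and KRT19, and single-layered epithelia, ovarian surface and tubal epithelium among them, use these 4. CDH1 (E-cadherin) and EPCAM hold epithelial cells together, while CDH2 (N-cadherin), the filament protein VIM, the matrix protein FN1 and the calcium-binding protein S100A4 are typical of mesenchymal cells. A shift between these sets is called epithelial-mesenchymal transition, and many ovarian carcinoma lines hold a mixture of both.

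Each library held between 11939148 and 22426768 reads assigned to genes. Abundance is given as counts-per-million of gene reads (CPM) after TMM scaling, in which library totals are adjusted for differences in composition. In relaxin-2 replicates 1, 2 and 3, 24.0%, 17.5% and 25.8% of reads lay outside annotated exons of the counted strand, against 27.9%, 32.04% and 28.7% in untreated replicates 2, 3 and 4. Relaxin-2 replicate 2 also had 27.0% multimapping reads, against 5.31% to 6.19% in the other libraries. RXFP1, the main relaxin-2 receptor, had 0 reads in the relaxin-2 libraries and 1 read in the untreated libraries. PAX8, a Müllerian lineage factor of ovarian carcinoma, was present with 65.6 CPM in relaxin-2 and 53.1 CPM in untreated libraries, whereas EMX2 had 0 reads and MUC16 had 2, 0 and 2 reads in relaxin-2 libraries and 0 in untreated ones. Of the same list of 5 markers, WT1 was low, with 3.34 and 2.98 CPM in relaxin-2 and untreated libraries. SOX17 had 0, 1 and 2 reads in relaxin-2 libraries and 1, 0 and 1 in untreated ones.

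Markers of other cell types differed in their level. Of 5 immune markers 4 had reads, CD3E had 0, and their sum was 1.04 to 1.22 CPM in relaxin-2 and 0.764 to 1.27 CPM in untreated libraries. Of 5 endothelial markers all had reads, with sums of 2.18 to 3.13 CPM and 1.80 to 2.42 CPM in relaxin-2 and untreated libraries. Of 6 fibroblast markers 5 had reads, most of them in PDGFRB, DCN had 0, and the sum was 17.95 to 18.7 CPM in relaxin-2 and 10.6 to 18.9 CPM in untreated libraries. The mesothelial list, 4 of 5 with reads, ITLN1 with 0 and led by MSLN, summed to 33.0 to 47.5 CPM in relaxin-2 and 11.4 to 32.6 CPM in untreated libraries, ranges that meet almost end to end. The median log2 fold change of its 3 tested genes was 0.56, and 0.46 without untreated replicate 2. It was 0.07 with offsets that remove each library's trend on GC content and transcript length. Whether these transcripts have a part in the keratin values below was not tested.

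The starts of FN1, VIM and S100A4 are shown because FN1 and VIM are among the most abundant transcripts of these cells while S100A4, of the same mesenchymal set, is nearly absent. The windows come from RefSeq on GRCh38.p14 and cover 300 bases around the gene's start, written 5′ to 3′ on the gene's strand. The start sites of the windows for FN1 (chr2:215436019-215436318, minus strand), VIM (chr10:17227991-17228290, plus strand) and S100A4 (chr1:153545757-153546056, minus strand) each lie within 18 bases of a main transcript start in GENCODE 29. Of the annotated transcripts, 10 of 27 for FN1, 1 of 10 for VIM and 3 of 6 for S100A4 start within 100 bases of that site. Other starts, which are most of those of VIM, were not searched. Capitals mark the cAMP response element TGACGTCA, which reads the same on both strands, and the E-box CACCTG, searched also as CAGGTG for the other strand, which is the kind of site that ZEB and SNAI repressors are known to bind. The 2 motifs do not overlap each other.
FN1: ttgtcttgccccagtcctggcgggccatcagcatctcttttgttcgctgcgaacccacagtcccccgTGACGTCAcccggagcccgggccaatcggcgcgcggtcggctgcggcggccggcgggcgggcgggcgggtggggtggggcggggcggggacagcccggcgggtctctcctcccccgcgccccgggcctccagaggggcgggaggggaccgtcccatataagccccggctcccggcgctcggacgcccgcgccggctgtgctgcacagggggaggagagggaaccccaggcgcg
VIM: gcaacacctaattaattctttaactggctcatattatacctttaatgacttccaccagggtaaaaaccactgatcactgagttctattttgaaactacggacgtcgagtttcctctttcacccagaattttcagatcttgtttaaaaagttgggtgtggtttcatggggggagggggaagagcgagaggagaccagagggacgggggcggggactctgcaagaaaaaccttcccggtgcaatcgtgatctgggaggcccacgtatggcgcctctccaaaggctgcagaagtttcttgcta
S100A4: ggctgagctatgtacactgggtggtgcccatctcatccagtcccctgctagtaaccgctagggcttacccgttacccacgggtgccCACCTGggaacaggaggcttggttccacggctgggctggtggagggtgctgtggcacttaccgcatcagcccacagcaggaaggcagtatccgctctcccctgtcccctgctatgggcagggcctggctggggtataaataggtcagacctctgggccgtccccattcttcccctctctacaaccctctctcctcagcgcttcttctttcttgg

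The FN1 window held 1 cAMP response element, at position -183 relative to the start site, and no E-box. The S100A4 window held 1 E-box, at position -164, and no cAMP response element, and the VIM window held neither. Of 35116 windows that RefSeq gave, 1.85% held the cAMP response element and 20.6% the E-box. Among the 430 tested genes with the element in a window, 216 had a positive and 214 a negative fitted difference after relaxin-2, with a median log2 fold change of 0.0018, beside -0.0036 over all 11334 tested genes that have a window. For KRT8 and CDH2 the RefSeq windows held neither motif. The start sites of the CDH2 windows lie 316 and 140805 bases from the nearest main transcript start in GENCODE. KRT7, KRT18, KRT19, EPCAM and CDH1 had no window, so their starts were not searched. The KRT8 window lies 19851 bases from the nearest main transcript start in GENCODE, so it is not printed.

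OVCAR8 cells expressed simple-epithelial keratins and mesenchymal genes at high levels side by side, with and without relaxin-2, and 3 of the members were at or near 0. Levels between genes are compared as CPM per kilobase of annotated exon (RPKM). KRT18 had 406 ± 39.9 RPKM in relaxin-2 and 361 ± 89.3 RPKM in untreated libraries (mean ± SD, n = 3 each), and VIM had 343 ± 9.01 and 330 ± 2.77 RPKM in the same order of groups. KRT8 followed with 141 ± 16.4 RPKM in relaxin-2 and 102 ± 32 RPKM in untreated libraries. KRT7 (63.3 ± 8.75 RPKM in relaxin-2, 48.3 ± 15.5 RPKM in untreated), FN1 (53.0 ± 0.995 and 53.0 ± 5.28 RPKM) and CDH2 (52.5 ± 1.87 and 52.1 ± 2.37 RPKM) formed a group whose levels did not differ beyond their spread in untreated cells. KRT18 and VIM did not differ beyond their spread in untreated cells either. In the relaxin-2 libraries KRT18 (366, 406 and 446 RPKM) lay above VIM (338, 339 and 354 RPKM). By its mean there KRT7 ranked 4th, above FN1 and CDH2. In relaxin-2 replicate 1, however, KRT7 had 53.2 RPKM, beside 51.8 RPKM for FN1 and 54.1 RPKM for CDH2.

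EPCAM was lower than those 6 genes, at 11.9 ± 0.395 RPKM in relaxin-2 and 12.4 ± 1.75 RPKM in untreated libraries. S100A4 had 1.14 ± 0.144 and 1.01 ± 0.324 RPKM, CDH1 had 0.160 ± 0.0448 and 0.147 ± 0.0744 RPKM, and KRT19 had 0.0194 ± 0.0337 and 0.00641 ± 0.0111 RPKM, relaxin-2 libraries first in each pair. The gaps from CDH2 or KRT7 to EPCAM, from EPCAM to S100A4 and from S100A4 to CDH1 exceeded the spread in both groups. With the length of the longest transcript in place of all annotated exons, VIM stood above KRT18 and KRT7 above FN1 and CDH2 in both groups. By that length FN1 also stood apart from CDH2, with 99.98 and 59.96 RPKM in relaxin-2 and 100.1 and 59.56 RPKM in untreated libraries. The order from EPCAM down to KRT19 was the same. In reads per gene, VIM ranked 28th, KRT18 47th, FN1 77th and KRT8 95th among the 16740 tested genes.

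**Figure D1:**
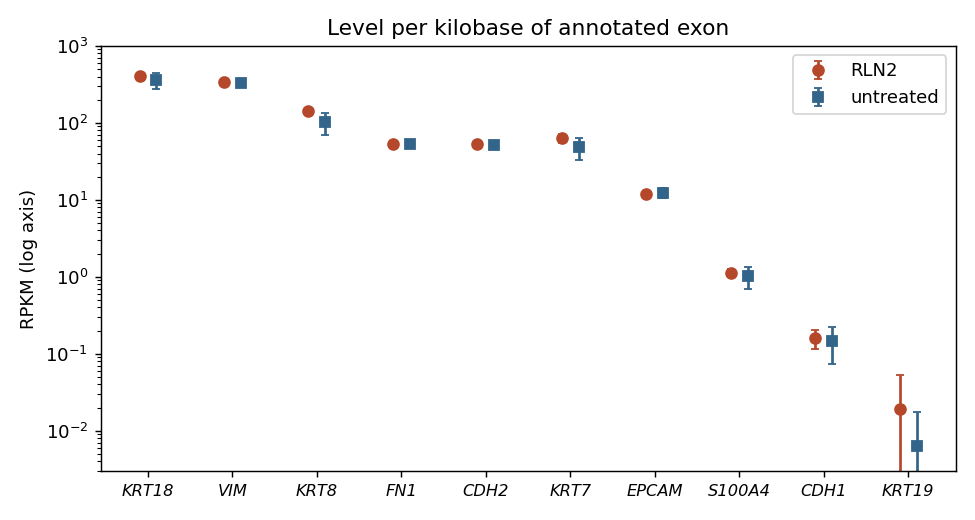
Mean level of each gene in RPKM on a log axis, with SD over 3 libraries, for relaxin-2 (circles) and untreated (squares) libraries. KRT18 and VIM are highest, and S100A4, CDH1 and KRT19 lie far below the other 7 genes in both groups.

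The fit over all genes called no difference at an adjusted p under 0.05. That held for 0 of the 9 members with enough reads to be tested, against 0% of the 16740 genes tested (edgeR quasi-likelihood test, Benjamini-Hochberg adjusted p). Of the 9 members 0 had an unadjusted p under 0.05, beside 1811 of all genes. DESeq2 called 0 genes (1677 had a raw p below 0.05) and limma-voom 0 (2058 below 0.05). Of the members 7 had a positive and 2 a negative fitted difference, and their median log2 fold change was 0.11, beside -0.01 over all tested genes. Relaxin-2 and untreated libraries did not overlap in 1 of the 9 members, VIM, beside 21.4% of all genes tested. The measurement is of bulk RNA, in which a change in the number of cells that express a gene and a change in RNA per cell cannot be told apart.

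**Figure D2:**
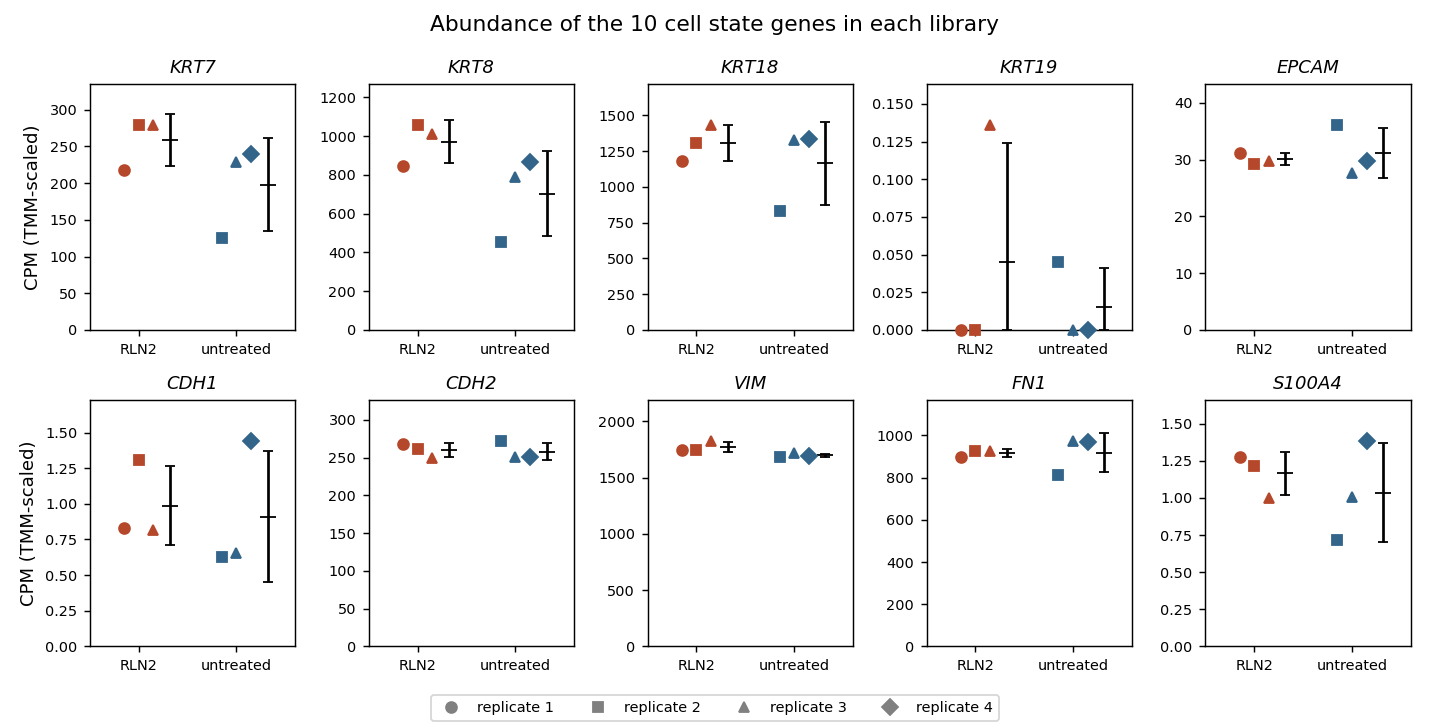
CPM of each gene in each library, relaxin-2 on the left and untreated on the right of each panel, with symbols for the replicate number and the mean ± SD of 3 libraries beside them. Untreated replicate 2 (blue square) is the lowest library for KRT7, KRT8, KRT18, CDH1, VIM, FN1 and S100A4 and the highest for EPCAM and CDH2.

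KRT8 (ENSG00000170421, chromosome 12, 52897187 to 52949954, minus strand, GRCh38, GENCODE 29), the type II keratin of simple epithelia, had the largest fitted difference among the 3 keratins of the set that were tested. It had 844, 1059 and 1012 CPM in relaxin-2 replicates 1, 2 and 3, against 453, 790 and 868 CPM in untreated replicates 2, 3 and 4. Relaxin-2 replicate 1 lay below untreated replicate 4, so the groups overlapped, and untreated replicate 2 stood far below the other 5 libraries. The log2 fold change was 0.47 ± 0.22 (SE), with a 95% interval of -0.04 to 0.98 and an adjusted p of 0.408 in edgeR.

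KRT7 (ENSG00000135480, chromosome 12, 52232520 to 52252186, plus strand), a type II keratin used in diagnosis of ovarian tumours, had 218, 280 and 280 CPM in the relaxin-2 libraries, against 125, 228 and 240 CPM in the untreated libraries. The order of the libraries was close to that of KRT8, with untreated replicate 2 again lowest and relaxin-2 replicate 1 below untreated replicates 3 and 4. Its log2 fold change was 0.39 ± 0.23, with an interval of -0.14 to 0.92 and an adjusted p of 0.416 in edgeR. KRT18 (ENSG00000111057, chromosome 12, 52948871 to 52952901, plus strand), the type I partner of KRT8, had 1177, 1308 and 1434 CPM in the relaxin-2 libraries, against 831, 1324 and 1334 CPM in the untreated libraries. Here 2 of the 3 relaxin-2 libraries lay below both of untreated replicates 3 and 4. Its log2 fold change was 0.17 ± 0.18 (interval -0.24 to 0.58, edgeR adjusted p = 0.605).

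Untreated replicate 2 had a large share in the keratin differences. Without that library the log2 fold changes were 0.23 for KRT8, 0.14 for KRT7 and -0.03 for KRT18, and with the GC and length offsets they were 0.19, 0.08 and -0.10. With 1 surrogate variable as a covariate they were 0.0036, -0.10 and -0.18. Fold changes over all genes also varied with GC content. Mean transcript GC was 57.8% for KRT8 and 58.8% for KRT7, within the highest of 5 equal groups of tested genes by GC content (57.5% to 74.2%), whose median log2 fold change was 0.45. KRT18, at 57.4%, lay at the upper end of the next group (51.3% to 57.5%), whose median was 0.15. In untreated replicate 2 the highest group deviated by -0.77 on the log2 scale from its mean over all libraries, and in relaxin-2 replicates 1, 2 and 3 by 0.05, 0.40 and 0.29. Histone genes had a median deviation of -0.91 in untreated replicate 2, and 50 of 52 tested had a positive difference (median 0.45). Mitochondrially encoded genes summed to 11680 to 55750 CPM in relaxin-2 and 8445 to 13550 CPM in untreated libraries. The mitochondrial ribosomal RNAs were uneven, with 11000 ± 15270 CPM (mean ± SD) for MT-RNR2 and 6072 ± 9564 CPM for MT-RNR1 in relaxin-2. In untreated libraries they had 1736 ± 1218 and 592 ± 556 CPM. MT-CO1 had 4205 ± 195 and 3876 ± 243 CPM. The median deviation of mitochondrially encoded genes was 0.18, 0.12 and -0.06 in relaxin-2, against 0.07, -0.31 and -0.08 in untreated libraries. The part of RNA quality in the keratin differences was not tested.

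**Figure D3:**
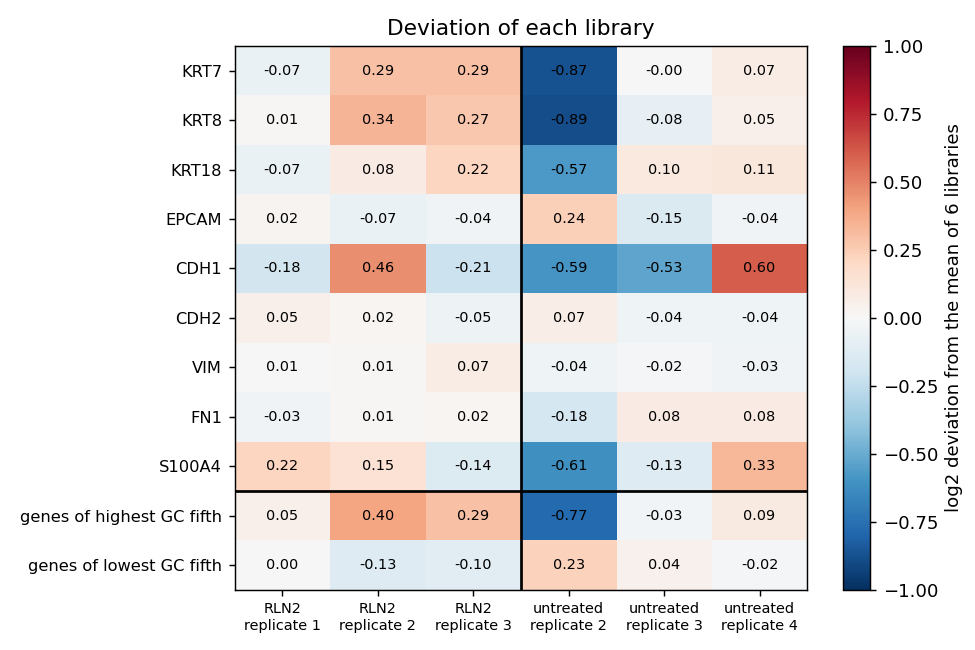
Log2 deviation of each tested gene from its mean over the 6 libraries, with relaxin-2 libraries left of the line and untreated ones right of it, and below them the median deviation of tested genes with the highest and the lowest GC content. KRT7 and KRT8 (-0.87 and -0.89) and the genes of high GC content (-0.77) are all low in untreated replicate 2, while CDH2 and VIM stay within 0.08 of 0 in every library.

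The 3 expressed keratins varied together. Over the 6 libraries Pearson's r of log2 CPM was 0.99 between KRT7 and KRT8, 0.97 between KRT7 and KRT18 and 0.93 between KRT8 and KRT18, as a description of libraries that also differ in depth and in their trend on GC content. Such likeness was common for KRT8 and KRT7, since 22.0% and 20.0% of the 10045 tested genes whose log2 CPM averaged 3 or more reached r of 0.95 or more with them, against 5.55% for KRT18. The single most similar genes were MYO1C for KRT8, NDUFV1 for KRT7 and UBE3B for KRT18, all at r of 1.00.

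The balance of KRT8 to its partner was measured within each library, where scaling between libraries drops out. A trend that touches the 2 genes unequally stays in the ratio. In untreated replicate 2 KRT8 deviated by -0.89 and KRT18 by -0.57 from the mean of the 6 libraries (log2). Per kilobase the log2 ratio of KRT8 to KRT18 was -1.58, -1.40 and -1.60 in relaxin-2 replicates 1, 2 and 3, against -1.97, -1.84 and -1.72 in untreated replicates 2, 3 and 4. All 3 relaxin-2 libraries lay above all 3 untreated libraries. For single genes the groups did not overlap, in either direction, in 21.4% of all genes tested, and no such share was computed for ratios. The difference of the mean log2 ratios was 0.32. The difference was 0.25 to 0.38 when 1 library was left out, 0.19 when the 2 libraries with the number 2 were left out together, and 0.31 in unstranded counts. It was not computed with the offsets or the surrogate variable. The fitted log2 fold changes of KRT8 and KRT18 were 0.19 and -0.10 with the offsets, and 0.0036 and -0.18 with 1 surrogate variable. The ratio of KRT8 to KRT7, added after the values were seen, was 1.16 ± 0.0502 in relaxin-2 and 1.09 ± 0.038 in untreated libraries (log2, mean ± SD, n = 3 each). No p is given for ratios over these genes.

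KRT19, the smallest type I keratin (ENSG00000171345, chromosome 17, 41523617 to 41528308, minus strand), was not tested because of its low counts. It had 0, 0 and 3 reads in the relaxin-2 libraries and 1, 0 and 0 reads in the untreated libraries. Over the summed TMM-scaled sizes of the 6 libraries these 4 reads give at most 0.0899 CPM (exact two-sided 95% Poisson limit, counting error only). A difference between the groups was not detectable at this depth.

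Near-identical copies limit KRT8 and KRT18. Both genes have many processed pseudogenes, and reads that fit several places equally well are not in these counts. Of 118 annotated pseudogenes of the pair 91 had reads and 15 had enough to be tested, 10 with a positive and 5 with a negative fitted difference (median log2 fold change 0.09). Their summed abundance was 33.8 to 41.6 CPM in relaxin-2 and 21.3 to 39.3 CPM in untreated libraries, small beside KRT8 itself. The most abundant, KRT8P3, had 12.1 CPM in relaxin-2 and 7.97 CPM in untreated libraries (log2 fold change 0.60 ± 0.28, edgeR adjusted p = 0.408) and its split of reads with KRT8 is uncertain. Its value was 0.05 with 1 surrogate variable, 0.30 with the offsets and 0.31 without untreated replicate 2, and the list median was -0.15 without that library and -0.09 with the offsets. KRT8P33 had 3.97 and 3.36 CPM, KRT18P31 2.78 and 3.00 CPM and KRT18P5 0.457 and 0.750 CPM in relaxin-2 and untreated libraries. KRT8 and KRT18 lie head to head on opposite strands and share 525 exon bases in GENCODE 29. Of the reads at KRT8 exons on either strand 28.1% came from the strand opposite to KRT8, against 0.322% at KRT18, and the strand-specific counts used here keep them apart.

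Among the other keratins 5 of 63 annotated genes and pseudogenes were tested, 3 with a positive and 2 with a negative difference, and 45 had 0 reads. The epidermal keratins KRT5 and KRT1 were among those at 0. KRT80, a type II keratin, had 40.5 CPM in relaxin-2 and 30.5 CPM in untreated libraries, a log2 fold change of 0.41 ± 0.14 (edgeR adjusted p = 0.408). KRT34 had 6.96 and 5.68 CPM (0.29 ± 0.14), and KRT10, an epidermal type I keratin, had 10.9 and 12.6 CPM in relaxin-2 and untreated libraries. With the GC and length offsets KRT80 was 0.11 and KRT34 0.12, and without untreated replicate 2 they were 0.29 and 0.25. The median log2 fold change of the 5 was 0.17, and it was -0.20 with the offsets and -0.10 without untreated replicate 2.

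**Figure D4:**
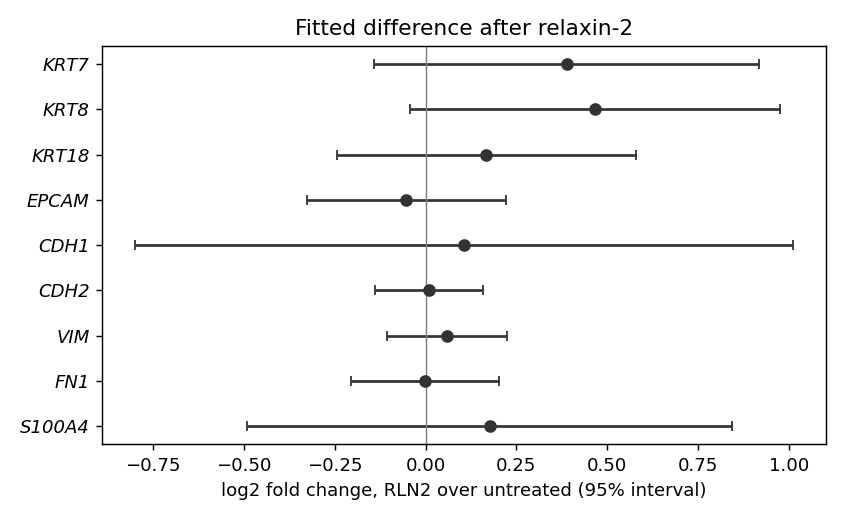
Log2 fold change of relaxin-2 over untreated libraries with its 95% interval for the 9 tested genes. Every interval includes 0, and the narrowest are those of CDH2, VIM and FN1.

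CDH2 (ENSG00000170558, chromosome 18, 27950966 to 28177446, minus strand), the neural cadherin, was the main cadherin of these cells. It had 268, 262 and 250 CPM in the relaxin-2 libraries, against 272, 251 and 251 CPM in the untreated libraries. The groups covered almost the same range. The log2 fold change was 0.01 ± 0.06, and its 95% interval of -0.14 to 0.16 corresponds to 0.907-fold to 1.12-fold (edgeR adjusted p = 0.944).

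CDH1 (ENSG00000039068, chromosome 16, 68737225 to 68835548, plus strand), the epithelial cadherin, was close to silent, with 15, 15 and 18 reads in the relaxin-2 libraries and 14, 15 and 25 reads in the untreated libraries. In CPM these are 0.833, 1.31 and 0.817 in relaxin-2 and 0.629, 0.657 and 1.44 in untreated libraries, so the groups overlapped throughout. Its log2 fold change was 0.11 ± 0.39, with an interval from 0.574-fold to 2.02-fold that leaves sizeable differences undetectable at this depth (edgeR adjusted p = 0.891). Per kilobase CDH2 exceeded CDH1 by 251-fold to 401-fold in the relaxin-2 libraries and by 218-fold to 539-fold in the untreated libraries. At CDH1 exons 23.3% of the reads of either strand came from the opposite strand, where an unnamed gene (ENSG00000260798) overlaps it.

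Of 21 other cadherins 6 were tested, 5 with a positive and 1 with a negative difference. CDH13, a cadherin with a lipid anchor, had 29.6 CPM in relaxin-2 and 30.6 CPM in untreated libraries. CDH24 had 22.7 and 15.9 CPM (log2 fold change 0.52 ± 0.23) and CDH4, the retinal cadherin, 14.99 and 10.9 CPM (0.46 ± 0.22), relaxin-2 first, and both had an edgeR adjusted p of 0.408. In these 2 of the 6 tested cadherins the groups did not overlap, beside 21.4% of all genes tested. Without untreated replicate 2 the log2 fold change was 0.28 for CDH24 and 0.23 for CDH4, and with the offsets -0.07 and 0.09. The list median of 0.30 was 0.02 with the offsets and 0.225 without untreated replicate 2.

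The catenin and adherens junction genes that link cadherins to actin were expressed throughout, 14 of 14 tested, with 10 positive and 4 negative differences and a median of 0.07. CTNNB1 (beta-catenin) had 659 CPM in relaxin-2 and 698 CPM in untreated libraries, VCL (vinculin) 626 and 587 CPM, and CTNNA1 (alpha-catenin) 605 and 588 CPM. The smallest p belonged to the less abundant NECTIN1 (4.15 and 2.53 CPM, log2 fold change 0.71 ± 0.26) and JUP, plakoglobin (22.9 and 14.1 CPM, 0.70 ± 0.26), each with an edgeR adjusted p of 0.408. Of 14 desmosome and linker genes, which tie keratins and other filaments to junctions or to each other, 13 were tested, 7 positive and 6 negative. DSP, the plakin that binds keratins at desmosomes, had 1112 CPM in relaxin-2 and 1092 CPM in untreated libraries, DST had 2142 and 2344 CPM, and MACF1 737 and 741 CPM. PKP3, a plakophilin, had 13.3 and 6.58 CPM (log2 fold change 1.02 ± 0.34) and PKP1 1.88 and 1.12 CPM (0.75 ± 0.31), relaxin-2 first, both with an edgeR adjusted p of 0.408. PKP3 passed edgeR's test with no filter on low counts (adjusted p = 0.0411), but its log2 fold change was 0.67 when untreated replicate 2 was left out, 0.30 with 1 surrogate variable and 0.31 with the offsets (adjusted p = 0.240, 0.557 and 0.429). Without untreated replicate 2 the value was 0.47 for NECTIN1, 0.43 for JUP and 0.46 for PKP1, and with the offsets it was 0.44, 0.24 and 0.58 for the same genes.

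EPCAM (ENSG00000119888, chromosome 2, 47345158 to 47387601, plus strand), the epithelial adhesion molecule, was present at a moderate level in cells with little CDH1. It had 31.2, 29.2 and 29.8 CPM in the relaxin-2 libraries, against 36.1, 27.7 and 29.8 CPM in the untreated libraries. Untreated replicate 2 was the highest library, the opposite of its place for the keratins, and r with KRT18 was -0.92 over the 6 libraries. EPCAM transcripts had a mean GC content of 47.1%, within the 3rd of the GC groups (46.5% to 51.3%). In untreated replicate 2 that group had a median deviation of 0.02 on the log2 scale, and EPCAM deviated by 0.24. The log2 fold change was -0.05 ± 0.12 (interval -0.33 to 0.22, edgeR adjusted p = 0.813), and without untreated replicate 2 it was 0.07.

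Of 13 partners and relatives of EPCAM 7 were tested, 5 positive and 2 negative, with a median log2 fold change of 0.12. CD44, the hyaluronan receptor, had 509 CPM in relaxin-2 and 521 CPM in untreated libraries, CD24 had 169 and 180 CPM, and SPINT2, a serine protease inhibitor, 100.3 and 91.9 CPM (0.12 ± 0.09, and -0.20 with the offsets).

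VIM (ENSG00000026025, chromosome 10, 17228259 to 17237593, plus strand), the mesenchymal intermediate filament, was steady over all libraries. It had 1742, 1746 and 1824 CPM in the relaxin-2 libraries, against 1688, 1715 and 1695 CPM in the untreated libraries. All relaxin-2 libraries lay above all untreated ones, by a narrow margin. Its log2 fold change was 0.06 ± 0.07, with an interval of 0.929-fold to 1.17-fold (edgeR adjusted p = 0.646). It turned to -0.10 with unstranded counts, in which the antisense gene VIM-AS1 overlaps, and to -0.10 with the GC and length offsets.

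Relative to the 4 keratins together, VIM per kilobase had a log2 ratio of -0.68, -0.89 and -0.90 in the relaxin-2 libraries, against -0.12, -0.81 and -0.87 in the untreated libraries. Untreated replicate 2 stood alone with almost equal VIM and keratin, and the other 5 libraries lay close together. Of 12 other intermediate filament genes 8 were tested, 7 positive and 1 negative. Their median of 0.26 was 0.02 with the offsets and 0.14 without untreated replicate 2. NEFH, a neurofilament chain, had 189 CPM in relaxin-2 and 160 CPM in untreated libraries (log2 fold change 0.24 ± 0.08), and LMNB2, a nuclear lamin, 157 and 101 CPM (0.64 ± 0.21), both with an edgeR adjusted p of 0.408. LMNB1, the other B-type lamin, had 163 and 167 CPM. LMNB2 passed edgeR's test with no filter on low counts (adjusted p = 0.0243), but its log2 fold change was 0.42 without untreated replicate 2, 0.20 with 1 surrogate variable and 0.04 with the offsets (adjusted p = 0.208, 0.277 and 0.877). NEFH was -0.10 with the offsets and 0.21 without untreated replicate 2.

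FN1 (ENSG00000115414, chromosome 2, 215360440 to 215436172, minus strand), fibronectin, whose start carries the cAMP response element shown above, had 897, 925 and 929 CPM in the relaxin-2 libraries, against 813, 973 and 969 CPM in the untreated libraries. The relaxin-2 libraries lay inside the range of the untreated ones. The log2 fold change was -0.0018 ± 0.09, with an interval of -0.21 to 0.20 on the log2 scale (edgeR adjusted p = 0.993). The log2 ratio of FN1 to VIM per kilobase was -2.70 ± 0.0296 in relaxin-2 and -2.64 ± 0.14 in untreated libraries (mean ± SD, n = 3 each).

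Of 15 fibronectin receptors and matrix partners 14 were tested, 9 positive and 5 negative, with a median of 0.01. ITGB1, the integrin beta chain of most fibronectin receptors, had 615 CPM in relaxin-2 and 672 CPM in untreated libraries, and ITGAV had 343 and 378 CPM. TGM2, a transglutaminase that cross-links fibronectin, had 307 and 228 CPM (log2 fold change 0.43 ± 0.16) and FBLN1, fibulin, 20.2 and 13.6 CPM (0.58 ± 0.27), relaxin-2 first, both with an edgeR adjusted p of 0.408. Without untreated replicate 2 the values were 0.25 for TGM2 and 0.34 for FBLN1, and with the offsets 0.12 and 0.21.

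S100A4 (ENSG00000196154, chromosome 1, 153543613 to 153550136, minus strand), a calcium-binding protein of motile cells, was almost absent despite the high VIM and FN1. It had 23, 14 and 22 reads in the relaxin-2 libraries and 16, 23 and 24 reads in the untreated libraries, or 1.28, 1.22 and 0.999 CPM in relaxin-2 and 0.719, 1.01 and 1.38 CPM in untreated libraries. The groups overlapped, and the log2 fold change was 0.18 ± 0.29 with an interval of 0.712-fold to 1.80-fold (edgeR adjusted p = 0.740). S100A3 overlaps it on the same strand, as KRT86 does KRT7. Reads that fit both genes of such a pair fall among the ambiguous reads, which entered no gene's count. How many reads these genes lost in this way was not measured. Other S100 genes were abundant: of 18, 7 were tested, 7 positive and 0 negative, among them S100A6 (278 CPM in relaxin-2, 258 CPM in untreated), S100A10 (218 and 199 CPM) and S100A11 (101 and 83.4 CPM, log2 fold change 0.28 ± 0.09, edgeR adjusted p = 0.408). S100A11 was at 0.24 with the offsets and at 0.22 without untreated replicate 2. S100A16 had 83.8 and 70.5 CPM (0.25 ± 0.18, and 0.06 without untreated replicate 2). The list median of 0.14 was 0.01 with the offsets and 0.06 without untreated replicate 2.

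Of 18 listed regulators of the epithelial-mesenchymal balance 13 were tested, 4 positive and 9 negative, with a median log2 fold change of -0.08. Among repressors of CDH1 ZEB2 was present with 77.2 CPM in relaxin-2 and 78.1 CPM in untreated libraries, ZEB1 with 55.3 and 58.6 CPM and TCF4 with 14.2 and 15.1 CPM. SNAI2, named after its values were seen, was close to TCF4, at 13.9 and 15.1 CPM. SNAI1, another repressor of CDH1, had 2.25 and 1.49 CPM (0.61 ± 0.28) and KLF4 11.7 and 13.7 CPM (-0.23 ± 0.11), both with an edgeR adjusted p of 0.408. SNAI1 was at 0.38 without untreated replicate 2, and with the offsets 0.30 for SNAI1 and -0.53 for KLF4. Over the 10 lists of related genes no member was called at an adjusted p under 0.05 in edgeR.

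**Figure D5:**
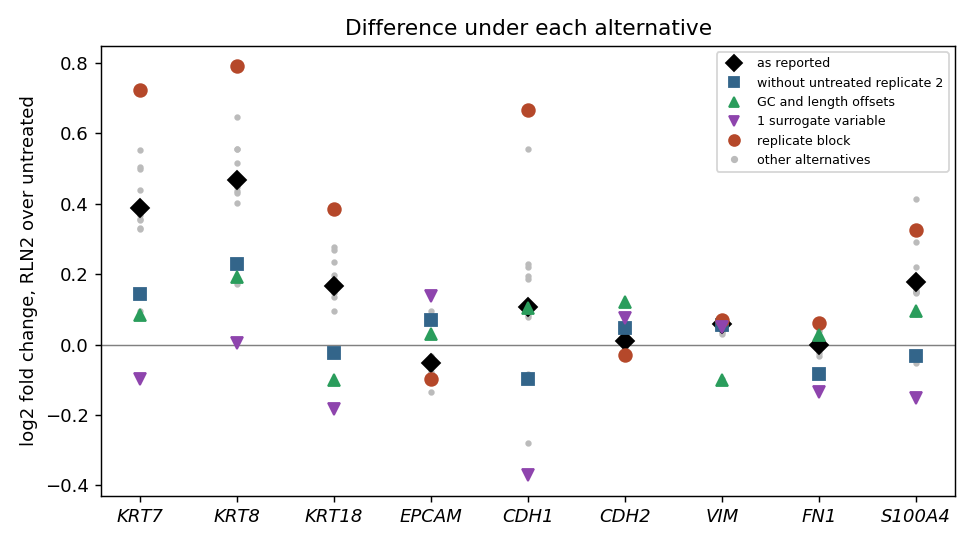
Log2 fold change of relaxin-2 over untreated libraries for the 9 tested genes under each alternative, with the reported value as a black diamond. KRT7, KRT8 and CDH1 spread most, KRT8 from 0.0036 to 0.79, whereas VIM stays between -0.10 and 0.07 and CDH2 between -0.03 and 0.12.

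Among the mesenchymal members r over the 6 libraries was -0.85 between CDH2 and FN1, 0.70 between FN1 and S100A4, -0.37 between CDH2 and VIM, -0.33 between CDH2 and S100A4, 0.21 between VIM and FN1 and 0.10 between VIM and S100A4. FN1 had r of 0.91 with KRT18 and -0.95 with EPCAM, and CDH2 -0.83 with KRT18. The most similar gene was TTI2 for VIM (r of 0.99), SRA1 for FN1 (1.00), SPIN4 for CDH2 (0.99), LUC7L3 for EPCAM (1.00), KHDC1 for CDH1 (0.99) and L3MBTL1 for S100A4 (0.98). Only 4 of 10045 genes reached r of 0.95 or more with VIM and 29 with CDH2. The log2 CPM of VIM stayed within 0.08 of its mean in every library, so a high r there describes small differences.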

How the data were processed

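RNA came from TRIzol extracts and was made into libraries with a strand-specific total RNA kit, as the labels' protocols state. The authors deposited raw counts for every gene, as a table for each library (unstranded, forward and reverse columns) and as a merged table, made with STAR on hg38 per the submitters' processing notes. STAR's version is not given in the sources used here, nor is the annotation release. Of its 28381 lines the merged table has 2981 without counts, and for 24635 of 24635 gene IDs shared with the library tables its counts equal the reverse column, whose gene reads were 17.8 to 19.8 times those of the forward column. The reverse column was used. Lines for unmapped (6.73% to 17.4%), multimapping (5.31% to 27.0%), ambiguous (2.36% to 4.18%) and no-feature reads (17.5% to 32.04%) entered neither library sizes nor tests. Gene reads per library were 11939148 to 22426768, and log2 fold changes had a median SE of 0.16. Every pair of libraries differed by more than sampling noise (chi-square per degree of freedom 2.47 or more). The value was 5.64 to 47.1 for pairs within a group and 2.47 to 88.2 for pairs across the groups. The most alike pair was relaxin-2 replicate 1 and untreated replicate 4.

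Of 58037 gene IDs, 57388 were in GENCODE 29 (GRCh38), which gave positions, exon lengths and GC content, and current symbols came from a table of gene names. After filterByExpr (minimum count 10) and TMM scaling, genes were tested by quasi-likelihood in edgeR 4.0.16 (two-sided, treatment as the only term, all 6 libraries, Benjamini-Hochberg adjusted over 16740 genes, threshold 0.05) in R 4.3.3 with limma 3.58.1. Intervals are 95% intervals of that fit, and RPKM was computed here from the counts and the summed exon length of each gene. Members and lists were chosen with earlier results of these data known, and of each list the 3 most abundant and the 2 genes with the smallest p are named, except 1 gene that is not reported here. KRT1, KRT5, PDGFRB, MSLN, DCN and other markers were named after their values were seen. Alternatives were DESeq2 1.42.0, limma-voom, other scalings, no filter, unstranded counts, the merged table, leaving out libraries, the replicate number as a block, offsets on GC content and length (splines with 4 degrees of freedom, known for 99.6% of genes), 1 surrogate variable from sva 3.50.0, leaving out the genes of small RNAs, mitochondria and histones, and an adjusted p under 0.10. The test was checked on simulated data. Tables used Python 3.11.15 and pandas 2.3.3, figures matplotlib 3.10.9.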

Additional observations from a re-analysis of the deposited data

How the results depend on the processing

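No member was called at an adjusted p under 0.05 in any of the alternatives run, nor at one under 0.10 in the reported fit, and adjusted p for KRT8 was 0.0711 to 0.991 over 19. The KRT8 difference of 0.47 was 0.23 without untreated replicate 2, 0.17 without both libraries numbered 2, 0.19 with GC and length offsets and 0.0036 with 1 surrogate variable. Over all genes the count called was 0, against 120 with no filter, 3 without both libraries numbered 2, 1 with the replicate number as a block, 7 with 1 surrogate variable and 0 to 3 when 1 library was left out (3 without untreated replicate 2). With no filter 4 listed genes were among those 120, LMNA (log2 fold change 0.64), LMNB2 (0.64), PLEC (0.93) and PKP3 (1.02). The share of all genes called in that setting was not computed. Values of LMNA and PLEC under the other alternatives are not given here. Leaving out each library in turn gave log2 fold changes of -0.025 to 0.28 for KRT18, -0.14 to 0.069 for EPCAM, -0.10 to 0.56 for CDH1, -0.018 to 0.047 for CDH2, -0.083 to 0.040 for FN1 and -0.033 to 0.41 for S100A4. Without both libraries numbered 2 the values were -0.017 for KRT18, 0.095 for EPCAM, -0.28 for CDH1 and -0.052 for S100A4. With GC and length offsets they were -0.10 for KRT18, 0.031 for EPCAM, -0.10 for VIM, 0.026 for FN1, -0.069 for CDH24, -0.10 for NEFH, -0.050 for S100A16 and -0.20 for SPINT2. With 1 surrogate variable they were -0.10 for KRT7, -0.18 for KRT18, 0.14 for EPCAM, -0.37 for CDH1, -0.15 for S100A4, -0.11 for S100A16 and -0.0054 for SPINT2. CDH2 was -0.014 with upper-quartile factors and -0.021 with library size only. FN1 was 0.0020 with DESeq2, 0.0036 with limma-voom, 0.0020 with RLE factors, 0.011 with unstranded counts and 0.0029 with the merged table, and VIM was -0.10 with unstranded counts. The causes of these reversals were not tested.

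The groups share only the replicate numbers 2 and 3, and nothing in the labels pairs them. Correlations of same-numbered deviations from the group means were -0.33 and 0.12. With the replicate block CDH2 was -0.030, FN1 0.060, KRT8 0.79 and KRT7 0.72. Depth limits CDH1, S100A4 and KRT19, which had few reads.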
